A study of Homo sapiens with 8 samples.

Results

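In U937-PR9 cells induced to express PML::RARA, 1372 of 15412 Cut&Run peaks obtained with the anti-PML::RARA antibody were lone peaks far from labelled promoters. A peak was counted as lone when it carried no gene symbol in the deposited annotation, when its centre lay at least 100 kb from the centre of every peak with a symbol, and when no peak of any kind had its centre within 25 kb. Lone peaks made up 8.90% of the list (Wilson 95% interval 8.46 to 9.36%) and 16.6% of its 8243 unlabelled peaks (15.9 to 17.5%). The rule used positions and labels only and no signal value. U937-PR9 is a single myeloid cell line with a PML::RARA transgene behind a zinc-inducible promoter, and Cut&Run recovers the DNA that an antibody-tethered nuclease cuts out of isolated nuclei. The cells received 100 μM ZnSO4 (induced) or sterile water (non-induced) for 5 h, and each condition was profiled in 2 replicates with an anti-PML::RARA and an anti-RARA antibody, 8 libraries in all. The values below come from 1 list, the peaks that the authors kept as reproducible between both replicates. The list names no sample, and it was taken as that of induced cells with the anti-PML::RARA antibody from its name and its number of peaks. Zinc treatment and the fusion protein cannot be told apart in these libraries, because every group carried the transgene.

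PML::RARA joins the PML protein to the retinoic acid receptor alpha (RARA), a nuclear receptor that binds DNA with RXR at repeats of a short hormone response sequence (the half-site), and the fusion drives acute promyelocytic leukemia. Distal regulatory elements in myeloid cells are commonly bound by ETS factors such as PU.1, by RUNX1, by C/EBP proteins and by AP-1, which act together to set the myeloid gene program. An unlabelled peak far from promoters can lie in such an element, in an intron, or at a start site that the labelling did not include.

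The sequences of 7 lone peaks are shown as examples with the letters of ETS, AP-1, RUNX or C/EBP factors, or, at SORCS2, with none of these 4 kinds. Each line gives the apex, the point of largest signal, with 100 bases of hg19 on either side, read 5′ to 3′ on the plus strand and named by the nearest protein-coding start site. Capitals mark the ETS letters AGGAAGT or GGGAAGT, the AP-1 letters TGANTCA, the RUNX letters TGTGGT and the C/EBP letters TTGCNNAA, found on either strand.
SLMAP window, chr3:57937280-57937480: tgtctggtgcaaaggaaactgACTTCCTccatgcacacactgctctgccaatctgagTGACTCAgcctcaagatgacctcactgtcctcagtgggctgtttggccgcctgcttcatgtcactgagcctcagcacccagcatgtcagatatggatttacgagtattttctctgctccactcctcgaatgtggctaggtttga
HGF window, chr7:81475818-81476018: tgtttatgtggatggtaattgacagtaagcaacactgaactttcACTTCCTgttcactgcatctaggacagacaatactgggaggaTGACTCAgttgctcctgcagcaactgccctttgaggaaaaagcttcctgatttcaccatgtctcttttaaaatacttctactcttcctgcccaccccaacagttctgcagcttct
DNAH17 window, chr17:76588319-76588519: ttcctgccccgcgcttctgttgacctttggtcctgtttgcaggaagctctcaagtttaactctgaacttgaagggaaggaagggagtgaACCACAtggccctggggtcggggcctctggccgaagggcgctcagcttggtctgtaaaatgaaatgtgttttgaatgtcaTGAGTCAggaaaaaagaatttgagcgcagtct
CSNK1G3 window, chr5:123393012-123393212: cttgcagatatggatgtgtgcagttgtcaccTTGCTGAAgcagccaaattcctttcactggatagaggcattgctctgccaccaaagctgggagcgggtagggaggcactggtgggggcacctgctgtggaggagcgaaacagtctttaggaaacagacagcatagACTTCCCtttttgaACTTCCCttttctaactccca
RARB window, chr3:24719911-24720111: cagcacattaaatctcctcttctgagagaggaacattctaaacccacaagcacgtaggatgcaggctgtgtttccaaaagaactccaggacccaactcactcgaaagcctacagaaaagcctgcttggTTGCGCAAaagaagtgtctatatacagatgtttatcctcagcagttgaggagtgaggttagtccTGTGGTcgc
RUNX1 window, chr21:36880762-36880962: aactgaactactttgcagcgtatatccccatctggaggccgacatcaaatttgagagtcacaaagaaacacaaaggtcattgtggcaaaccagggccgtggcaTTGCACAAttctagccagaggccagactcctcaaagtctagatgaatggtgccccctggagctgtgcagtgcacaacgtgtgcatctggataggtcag
SORCS2 window, chr4:7651588-7651788: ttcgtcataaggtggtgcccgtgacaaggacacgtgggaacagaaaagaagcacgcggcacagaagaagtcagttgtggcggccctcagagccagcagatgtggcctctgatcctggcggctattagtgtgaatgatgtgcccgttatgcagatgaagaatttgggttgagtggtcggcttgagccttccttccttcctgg

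The SLMAP window, one of the highest lone peaks, held ETS letters starting 79 bp before the apex and AP-1 letters 43 bp before it. The HGF window, from one of the most isolated peaks, held the same pair 56 and 14 bp before the apex. At DNAH17, RUNX letters began 11 bp before and AP-1 letters 69 bp after the apex. The CSNK1G3 window lay far from any start site and carried ETS letters 66 and 80 bp after the apex and C/EBP letters 69 bp before it. The windows near RARB, a retinoic acid receptor gene, and RUNX1 carried C/EBP letters 28 and 3 bp after the apex, and RARB also RUNX letters 92 bp after it. A match of letters is a description of the sequence and no evidence that a factor was bound.

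Lone peaks were low and narrow for this list. Peak height is taken as the largest signal within a peak and total signal as the sum over it. Both meanings were inferred from the values, since the column names differ from them, and the normalization is not stated in the sources used here. The median height of lone peaks was 22 (95% interval of the median 21 to 22, quartiles 18 and 28), against 25 over all 15412 peaks and 24 over the 6871 other unlabelled peaks. Their median width was 559 bp (542 to 578, quartiles 404 and 782), against 652 bp in the other unlabelled peaks and 1108 bp in the 7169 labelled ones. Total signal had a median of 4330 in lone peaks and 5556 in the other unlabelled peaks. Heights of lone peaks ranged from 15 to 71 and widths from 95 to 4443 bp. A height of 40 or higher was reached by 70 lone peaks (5.10%), and by 13.3% of the other unlabelled peaks. A width of 2 kb or more was found in 13 lone peaks (0.948%), and in 3.32% of the other unlabelled peaks.

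**Figure D1:**
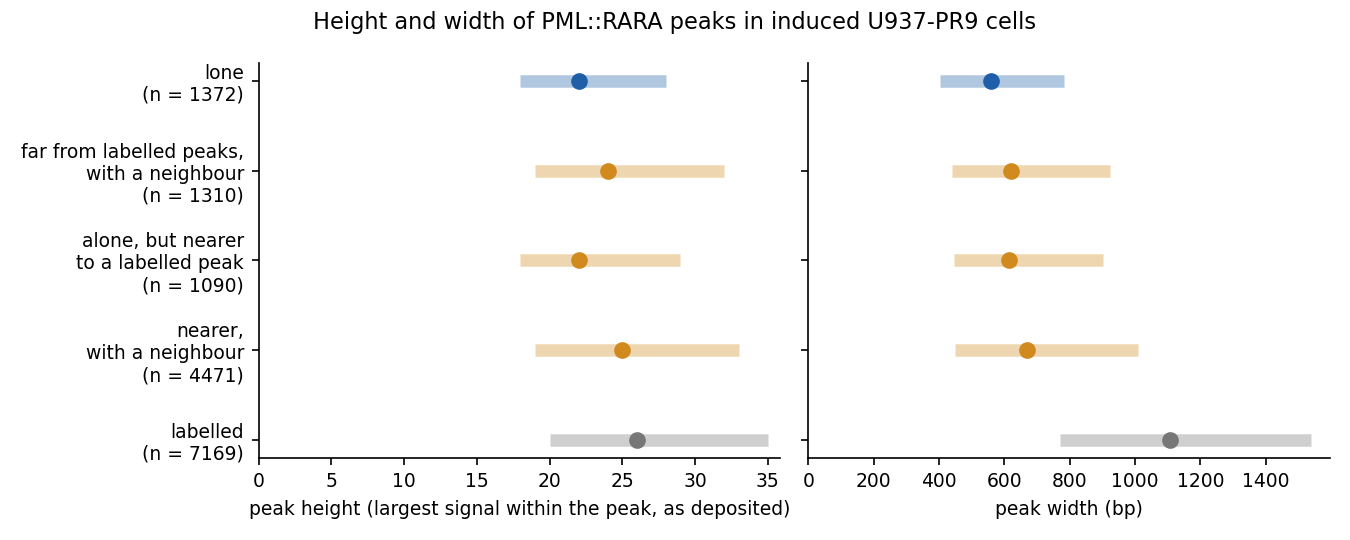
Median (point) and quartiles (bar) of peak height, the largest deposited signal, and of peak width in bp, for lone peaks, for the 3 other classes of unlabelled peaks and for labelled peaks. Lone peaks have the smallest median width, 559 bp, and share the smallest median height, 22, with the peaks that were alone but nearer to a labelled peak.

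Split by the components of the rule, median width was smaller both with isolation and with distance from labels. Median height differed mainly with isolation. The 1310 peaks that were as far from labels but had a neighbour within 25 kb had a median height of 24 and a median width of 620 bp. The 1090 peaks that were alone but nearer to a labelled peak had a median height of 22, the same as lone peaks, and a median width of 614 bp. The remaining 4471 unlabelled peaks, nearer and with a neighbour, were the largest unlabelled class, with medians of 25 and 670 bp. Mean log2 height was lower in lone than in other unlabelled peaks by 0.16 (4.51 against 4.67), and mean log2 width was lower by 0.23 (9.14 against 9.37). The direction of these means held on 23 of 23 chromosomes for height and on 22 for width. By medians there were more exceptions. Lone peaks were wider than other unlabelled peaks on chromosomes 3 (618 against 584 bp), 14 (743 against 632 bp) and 20 (616 against 615 bp). Median heights were equal on chromosomes 18 (22) and 20 (24). Within 10 classes of unlabelled peaks of like width, the mean log2 height of lone peaks was lower in all 10, with an average difference of -0.095. Peaks of 1 list are not replicates and the list used here has no values by replicate, so these differences carry no test and no replicate error.

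Among lone peaks, height and width rose together (Spearman's coefficient 0.400 over 1372 peaks of 1 list, as a description). Height fell slightly with isolation, except in the small class of the most isolated peaks. The distance from a lone peak to the nearest other peak had a median of 111872 bp and a Spearman coefficient with height of -0.098. Median height was 23 for the 296 lone peaks whose nearest peak lay 25 to 50 kb away, 22 for the 308 at 50 to 100 kb, 21 for the 497 at 100 to 250 kb, 20 for the 237 at 250 to 1000 kb and 22 for the 34 beyond. Width was somewhat larger near start sites (coefficient with the distance to the nearest start site -0.19) and in GC-rich sequence (coefficient with GC content 0.303).

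**Figure D2:**
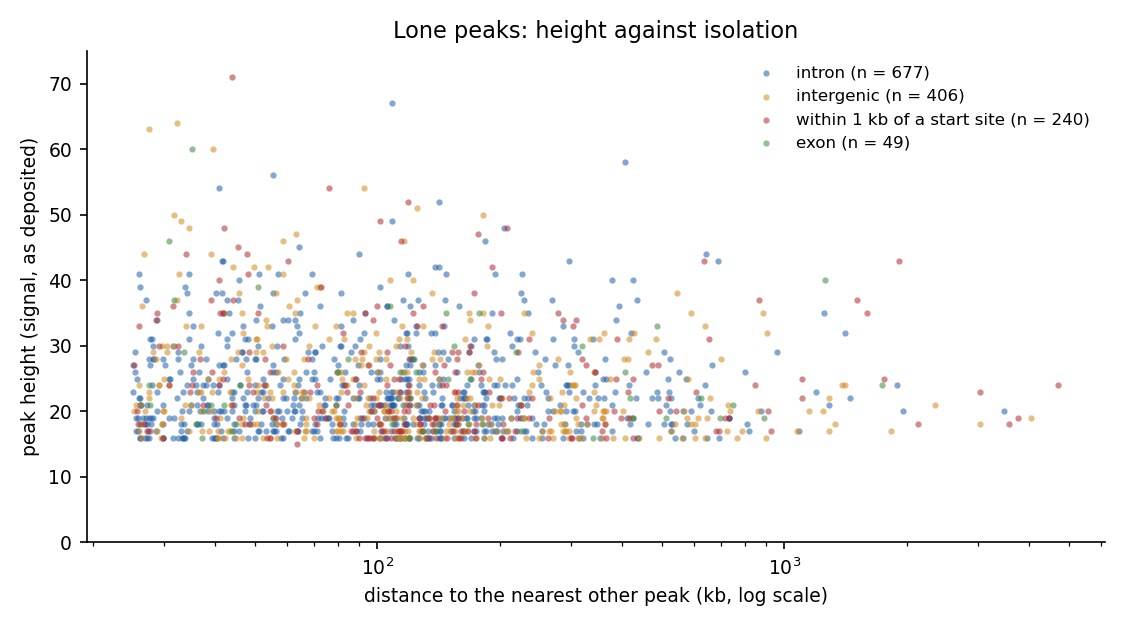
Height of each of the 1372 lone peaks (signal as deposited) against the distance to the nearest other peak in kb on a log axis, coloured by where the apex lay. Low heights occur at all distances, with medians of 23, 22, 21 and 20 for the peaks 25 to 50, 50 to 100, 100 to 250 and 250 to 1000 kb from another and 22 for the 34 beyond.

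At each limit of the rule, the single peak just outside was higher than the one just inside. Single peaks do not show how height changes at a limit, and this was not tested. The lone peak nearest to the 100 kb limit, chr14:93016174-93016553 in intron 1 of RIN3, lay 100146 bp from a labelled peak and had a height of 18. The peak just short of it, chr16:81577944-81578992 in intron 1 of CMIP, lay 99968 bp away with a height of 26. At the 25 kb limit, the lone peak chr16:88323489-88324097 had its nearest neighbour at 25103 bp and a height of 27. Just short of that limit, chr5:142381428-142382837 in intron 11 of ARHGAP26 had one at 24983 bp and a height of 36.

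The highest lone peak, chr5:139780071-139782521, reached 71, above 99.8% of the list, and was 2451 bp wide. Its apex lay 37 bp upstream of the start site of the lncRNA ANKHD1-DT and 317 bp upstream of that of ANKHD1, so this peak sat at a bidirectional start region despite its missing label. The next, chr4:7648326-7652768 in intron 4 of SORCS2, a sortilin-family receptor gene, had a height of 67 and was also the widest lone peak, with 4443 bp. A height of 64 was reached by chr3:57937024-57937776, which was intergenic, 34672 bp downstream of the nearest SLMAP start site, and only 753 bp wide. Of the remaining 2, chr1:235147016-235148553 reached 63 at 135474 bp from the nearest TOMM20 start site, and chr17:76588159-76588920 reached 60 at 14941 bp upstream of DNAH17. The highest lone peaks thus included a start site, an intron and intergenic sequence.

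Of the other wide peaks, a peak of 3530 bp, chr9:102581578-102585107, was 35 high, with the apex 1990 bp upstream of NR4A3, an orphan nuclear receptor gene, and 24 bp from the start site of a lncRNA. A peak of 3090 bp, chr15:69958900-69961989, lay in an intron of the lncRNA DRAIC with a height of 41, 216084 bp from the nearest protein-coding start site, that of RPLP1, a ribosomal protein gene. The peak at the start site of VIM, which encodes the intermediate filament vimentin, was 2901 bp wide with a height of 31. The lowest of the 5 widest, chr11:75944983-75947798, lay 24631 bp upstream of WNT11, a Wnt ligand gene, and was 2816 bp wide and 20 high.

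The 5 most isolated lone peaks had heights from 18 to 24. The first, chr9:66458425-66458550, lay 4716887 bp from any other peak, 126 bp wide and 24 high. Only 53.2% of the 31-base words in its apex window occur once in the genome. The second, chr7:81475767-81476080, lay 4047823 bp away, upstream of HGF, a growth factor gene, with a height of 19. The remaining 3, at the start site of DHFR2, 3057 bp upstream of PCDH7 and in intron 2 of TBL1X, a gene for a corepressor subunit, had heights of 19, 18 and 20. Over all lone peaks, every word of the apex window was unique in 1257 (91.6%). The lone peaks farthest from a start site were no higher on the whole. The farthest, chr6:91850891-91851635, had a height of 16 at 251297 bp, and that at 188487 bp upstream of GLI3, a Hedgehog pathway factor, also had 16. Those nearest to TRIM36 and SUCLG1 had heights of 18 and 20. The fifth, chr5:123392778-123393317, lay 163658 bp from any start site, 468993 bp from CSNK1G3, and reached 38.

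By their apex, 49.3% of lone peaks lay in introns (677 of 1372, Wilson 95% interval 46.7 to 52.0%), 29.6% were intergenic (27.2 to 32.1%), 17.5% lay within 1 kb of an annotated start site (15.6 to 19.6%) and 3.57% lay in exons. In the other unlabelled peaks these shares were 46.5%, 27.7%, 20.6% and 5.20%. The description as far from labelled promoters therefore held by the rule, but 240 lone peaks were close to a GENCODE start site of some kind. The gene was protein coding for 114 of the 240 and a lncRNA for 103. With protein-coding genes only, 128 lone peaks (9.33%) lay at a start site and 48.3% were intergenic. The median distance from apex to start site was 9849 bp for any gene and 29661 bp for protein-coding genes, against 4905 and 10070 bp in the other unlabelled peaks. More than 100 kb separated 359 lone peaks from every protein-coding start site. Of the 530 apexes in introns of canonical protein-coding transcripts, 137 lay in intron 1.

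The 128 lone peaks at protein-coding start sites differed from the rest of the lone peaks in width and sequence. Their median height was 22, whereas their median width was 953 bp and their median GC content 62.2%. Lone peaks at no start site had a median width of 540 bp and a GC content of 52.7%. The symbol of the gene was not used as a label anywhere in the list for 123 of the 128. Ranked by height, an order read after the values were seen, ANKHD1 was followed by TNRC6C, a gene of microRNA silencing, with a height of 54, and by LNPEP, an aminopeptidase gene, with 52 and a width of 2732 bp. SLC14A1 (a urea transporter), ZNF574, DIABLO (an antagonist of inhibitors of apoptosis) and STC2 followed with heights of 46, 45, 42 and 39. Among the peaks of height 33 were those at BCL2, which encodes an inhibitor of apoptosis, and NCOA1, which encodes a coactivator of nuclear receptors. The apex lay 9 bp from an annotated BCL2 start site and 300 bp upstream of a start site of NCOA1. The BCL2 and STC2 apexes both fell in intron 2 of the canonical transcript, at start sites of other transcripts of these genes. Start sites of any annotated transcript were counted, so a peak in this class need not lie at the start of the canonical transcript.

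Several lone peaks could share 1 gene body while lying more than 25 kb apart. The gene with the most, named after the counts were seen, was PRKCE, a protein kinase C gene, whose 6 lone peaks had heights of 39, 22, 27, 28, 19 and 20 in genome order. ZFHX3, a homeobox gene, held 5. BACH2, a transcriptional repressor of lymphoid cells, CACNA1C, a calcium channel gene, and DOCK9 held 4 each. LYN, a Src-family kinase of blood cells, and CCR3, a chemokine receptor gene, held 3 each. In PRKCE, 4 of the 6 peaks lay in intron 2. The 4 peaks in DOCK9 were all intronic, with heights of 22, 41, 33 and 36. The 1372 lone peaks had 1116 different nearest protein-coding genes. A single lone peak fell to 918 of these genes and 4 or more to 12, and for 249 lone peaks (18.1%) the nearest gene was a label elsewhere in the list.

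Among genes of myeloid transcription control, 31 lone peaks (2.26%, 1.60 to 3.19%) had one of 20 genes as the nearest, against 3.04% of the other unlabelled peaks. The list of 97 genes makes up 0.481% of the annotated protein-coding genes. Nearness does not show which gene a peak acts on. The highest, chr21:36880606-36881238, lay within the annotated span of RUNX1, the core hematopoietic factor, with a height of 58. Its apex was 43235 bp upstream of the nearest RUNX1 start site, and the nearest other peak was 405440 bp away. KLF13 followed with a height of 41 (chr15:31726543-31728072), and NR4A3 and ZEB2 with 35 each. The peak assigned to ZEB2, a zinc finger repressor, lay in the lncRNA TEX41, 183068 bp from its start site. ID2, an inhibitor of helix-loop-helix factors, had 3 lone peaks, with heights of 32, 28 and 21, all more than 240 kb upstream of its start site. SATB1, a chromatin organizer, had 1 with a height of 32.

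ERG, an ETS factor gene, had peaks of height 31 in intron 9 and 28 at 8299 bp upstream of a start site. MYC had 3, with heights of 31, 20 and 18, between 445705 and 817797 bp downstream of its start site. GATA2, a factor of stem and progenitor cells, had a peak of 1667 bp and height 30 at 30717 bp upstream. BCL11A had heights of 30 and 20, ETS1 28, PRDM16 27 and MEF2C 27 and 16. BACH2 start sites were the nearest for 4, with heights of 27, 22, 22 and 16, the last of them 79066 bp upstream and outside the gene. The lone peak of height 28 inside BACH2 is not among them, because its nearest protein-coding start site was that of GJA10. The lower end held MYCN with 23 and 16, TCF7L2 with 22, ZFPM2 with 21, BACH1 with 20, KLF4 with 18 and CEBPD with 17. Of these 31 peaks, 18 were intronic, 6 lay at start sites, 5 were intergenic and 2 exonic, and 23 carried at least 1 of the ETS, AP-1, RUNX and C/EBP letters. Their median height was 27, against 22 in all lone peaks. The genes were chosen with results of these data known, and no test was made.

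In the retinoid pathway, 4 lone peaks (0.292%) had a listed gene as the nearest, against 0.786% of the other unlabelled peaks. The peak nearest to NR2F2, an orphan nuclear receptor gene, had a height of 31 and lay 161475 bp downstream of its start site. At RARB the height was 19, with the apex 9367 bp upstream of a start site. The peak in intron 6 of TGM2, a retinoid-induced transglutaminase gene, had a height of 18, so that the peaks at RARB and TGM2 were below the median of lone peaks and that at NR2F2 was above it. The list has 39 genes, of which 11 carried a label somewhere in the list.

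Genes that the study names had 19 lone peaks (1.38%, against 1.43% of the other unlabelled peaks), nearest to 9 genes. AHR, the aryl hydrocarbon receptor gene, had 2, each measured from a different start site of the gene. The peak chr7:17447993-17448508 had a height of 34 at 73038 bp downstream. The peak chr7:17015224-17015720 had a height of 16 at 59509 bp downstream. DUSP6, a MAP kinase phosphatase gene, had 3, with heights of 28, 23 and 20, spread from 125605 to 310832 bp downstream. F3, which encodes tissue factor, had 1 of height 30, 60732 bp upstream. PTGER4, a prostaglandin receptor gene, had 1 of height 16, 270110 bp upstream. The others belonged to VIM and to the ID2, MYC, GATA2 and BACH2 peaks given above. The 3 lists together account for 43 lone peaks with heights from 16 to 58 and a median of 23.

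Other gene families were counted in the same way, by the nearest protein-coding start site at any distance. Cytokine signalling genes were nearest to 13 lone peaks (0.948%, against 1.18% of the other unlabelled peaks), of which those of BMP2, TNFRSF21 and TNFSF8 were the highest, with 35, 32 and 29. Cadherins and protocadherins, cell adhesion genes, were nearest to 11 lone peaks (0.802%, 0.448 to 1.43%), against 0.116% of the other unlabelled peaks. Their highest peaks lay in intron 9 of CDH23 with 38 and within CDHR3 with 25. A peak of height 25 with PCDH10 as the nearest gene was 1769306 bp from its start site and 222 bp from that of the lncRNA LINC02377. Potassium channel genes were nearest to 10 lone peaks (0.729% against 0.422%), with KCNK16, KCNIP1 and KCNAB1 at 36, 30 and 27. Glutamate receptor genes were nearest to 4 (0.292% against 0.160%), among them GRIK3 with 22 and GRIA1 with 19.

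ZNF genes were nearest to 23 lone peaks (1.68% against 1.43%), led by ZNF445, ZNF574 and ZNF423 with 49, 45 and 37. Solute carriers were nearest to 22 (1.60% against 2.33%), led by SLC14A1, SLC22A11 and SLC25A5 with 46, 37 and 35. Forkhead genes were nearest to 9 (0.656% against 0.451%), among them FOXO3 with 42, and FOXA2 with 25 and 24. Homeobox genes were nearest to 5 (0.364% against 0.262%), with heights of 26 for IRX5, 20 for HOXB1 and 18 for IRX1, from 47247 to 266188 bp away. SOX genes had 2, SOX4 with 29 at 253205 bp and SOX9 with 16 at 300451 bp, and the contactin and neurexin genes 1, CNTN5 with 21 at 419631 bp. For the SOX genes the shares were 0.146% and 0.0582%. The shares of lone peaks were below the shares of annotated protein-coding genes for ZNF genes (2.68%), solute carriers (1.91%), homeobox genes (0.392%) and contactins and neurexins (0.104%). They were above them for cytokine signalling (0.268%), cadherin (0.467%), potassium channel (0.471%), glutamate receptor (0.164%), forkhead (0.273%) and SOX genes (0.0943%). The counts of most families are small, and the spacing of genes along the chromosomes was not taken into account.

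The windows reaching 100 bp to either side of the apex of lone peaks held ETS letters in 29.8% of peaks (409 of 1372, Wilson 95% interval 27.4 to 32.3%). In windows of the same length 2 kb to either side of the same peaks the share was 8.05% (7.09 to 9.13%). In the other unlabelled peaks it was 30.3% at the apex and in the labelled peaks 14.7%, and over all peaks 23.0%. The PU.1 form GAGGAAGT, a subset of the ETS letters, occurred in 9.55% of lone peaks and 1.17% of flanking windows. AP-1 letters occurred in 20.8% of lone peaks (18.8 to 23.1%) and 6.27% of flanking windows, and RUNX letters in 30.8% (28.4 to 33.3%) and 14.3%. Labelled peaks had AP-1 letters in 4.73% and RUNX letters in 9.05%. Before GC content was considered, these shares were no higher than the 5.18% and 13.3% of their own flanking windows. Over all peaks the shares were 12.5% and 19.4%. C/EBP letters differed less before GC content was considered, with 13.8% of lone peaks (12.1 to 15.7%) against 10.3% of flanking windows (9.27 to 11.5%) and 9.64% of all peaks. The shares of lone and of other unlabelled peaks lay close together, at 20.8% and 18.9% for AP-1, 30.8% and 27.9% for RUNX and 13.8% and 13.1% for C/EBP.

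**Figure D3:**
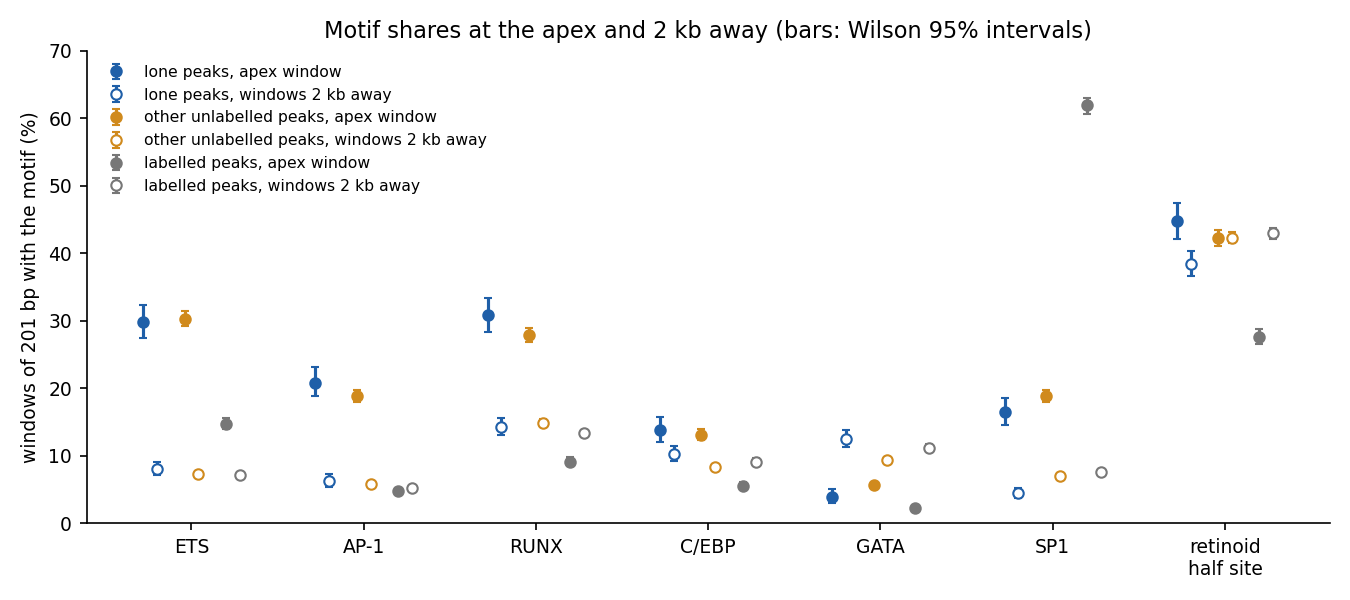
Percentage of windows of equal length with each motif at the apex (filled) and 2 kb to either side (open), with Wilson 95% intervals, for lone, other unlabelled and labelled peaks. For lone peaks the ETS share is 29.8% at the apex and 8.05% beside it, while the GATA share is 3.86% at the apex and 12.5% beside it.

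Letters of other factors varied in how their share at the apex compared with that in the flanking windows. GATA letters (AGATAA) were less frequent at the apex of lone peaks, with 3.86% (2.97 to 5.02%), than in their flanking windows, with 12.5%. SP1 letters (GGGCGG), typical of CpG-rich promoters, occurred in 16.5% of lone peaks, in 4.45% of their flanking windows and in 61.9% of labelled peaks. The retinoid half-site, whether in the form AGGTCA, in the form GGGTCA, in the form AGTTCA or in the form GGTTCA, occurred in 44.8% of lone peaks (42.1 to 47.4%) and 38.4% of their flanking windows (36.6 to 40.3%). Direct repeats of this half-site, searched at any spacing from 0 to 10 bp, occurred in 16 lone peaks (1.17%, 0.719 to 1.89%) and in 1.20% of flanking windows. Inverted repeats were found in 6 lone peaks (0.437%) and everted repeats in 3 (0.219%), against 0.285% and 0.318% of all peaks. The core motif of CTCF, an insulator protein, was found in 7 lone peaks (0.510%), in 0.0729% of their flanking windows and in 1.14% of the other unlabelled peaks. Over all 15412 peaks, the shares were 3.92% for GATA, 38.6% for SP1, 35.7% for the half-site, 0.999% for direct repeats and 0.824% for CTCF.

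GC content moved with these shares. The median GC content was 53.7% at the apex of lone peaks and 44.3% in their flanking windows, and it was 64.7% in labelled peaks. The median ratio of observed to expected CpG was 0.258 in lone and 0.816 in labelled peaks. Compared within windows of 50 to 55% GC, ETS letters occurred in 33.2% of 434 lone peaks and 8.12% of 431 flanking windows. In the same GC class AP-1 letters occurred in 23.0% and 3.94%, and RUNX letters in 32.9% and 17.9%. C/EBP letters in this class occurred in 12.7% and 7.42%, and their share was higher in lone peaks in each of the 5 GC classes, from 25% against 13.6% below 45% GC to 6.40% against 0.752% at 60% GC or more. GATA letters were less frequent in lone peaks in each class, but by varying amounts. Their shares were 13% of 92 lone peaks and 17.4% of 1458 flanking windows below 45% GC, 5.28% of 284 and 11.6% of 519 at 45 to 50%, 3.46% and 3.71% at 50 to 55%, 2.56% and 4.43% at 55 to 60%, and 1.20% and 2.26% above. The half-site was more frequent in lone peaks only below 50% GC, with 65.2% against 31.5% below 45% and 52.5% against 46.4% at 45 to 50%. Its shares were 47.0% against 51.0% at 50 to 55% GC, 44.9% against 45.3% at 55 to 60% and 24.4% against 32.3% at 60% or more. In windows of 60% GC or more, ETS letters occurred in 20.4% of 250 lone peaks and AP-1 letters in 8.40%, the lowest of the 5 GC classes, and SP1 letters in 48.8%, the highest. SP1 shares of lone peaks and flanking windows were 10.4% and 5.57% at 50 to 55% GC and 16.3% and 11.8% at 55 to 60%. At 60% or more the flanking share was 31.6%. The SP1 shares were 1.09% and 1.03% below 45% GC, and 2.46% against 3.28% at 45 to 50%. Labelled peaks below 60% GC had AP-1 letters more often than their flanking windows, with 11.8% against 4.61% at 50 to 55%. For the 5205 labelled peaks at 60% or more the shares were 3.25% and 3.59%. RUNX shares of labelled peaks were higher than in flanking windows below 50% and at 55 to 60% GC. They were lower at 50 to 55% (17.5% against 18.4%) and at 60% or more (6.26% against 8.91%).

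The letters gathered around the apex. In 50-bp bins, lone peaks had 9.84 ETS matches per 100 peaks in the bin ending at the apex, and 1.82 in the bin from 1000 to 950 bp before it. AP-1 matches numbered 7.29 per 100 lone peaks in the bin ending at the apex and 1.09 in that farthest bin, and RUNX matches 11.2 and 3.35. In the other unlabelled peaks the bins ending at the apex held 9.95 ETS, 6.20 AP-1 and 9.63 RUNX matches per 100 peaks. In labelled peaks they held 4.80, 1.65 and 2.62. The C/EBP matches of lone peaks numbered 4.52 per 100 in that bin and 4.23 in the farthest one, and varied from bin to bin.

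**Figure D4:**
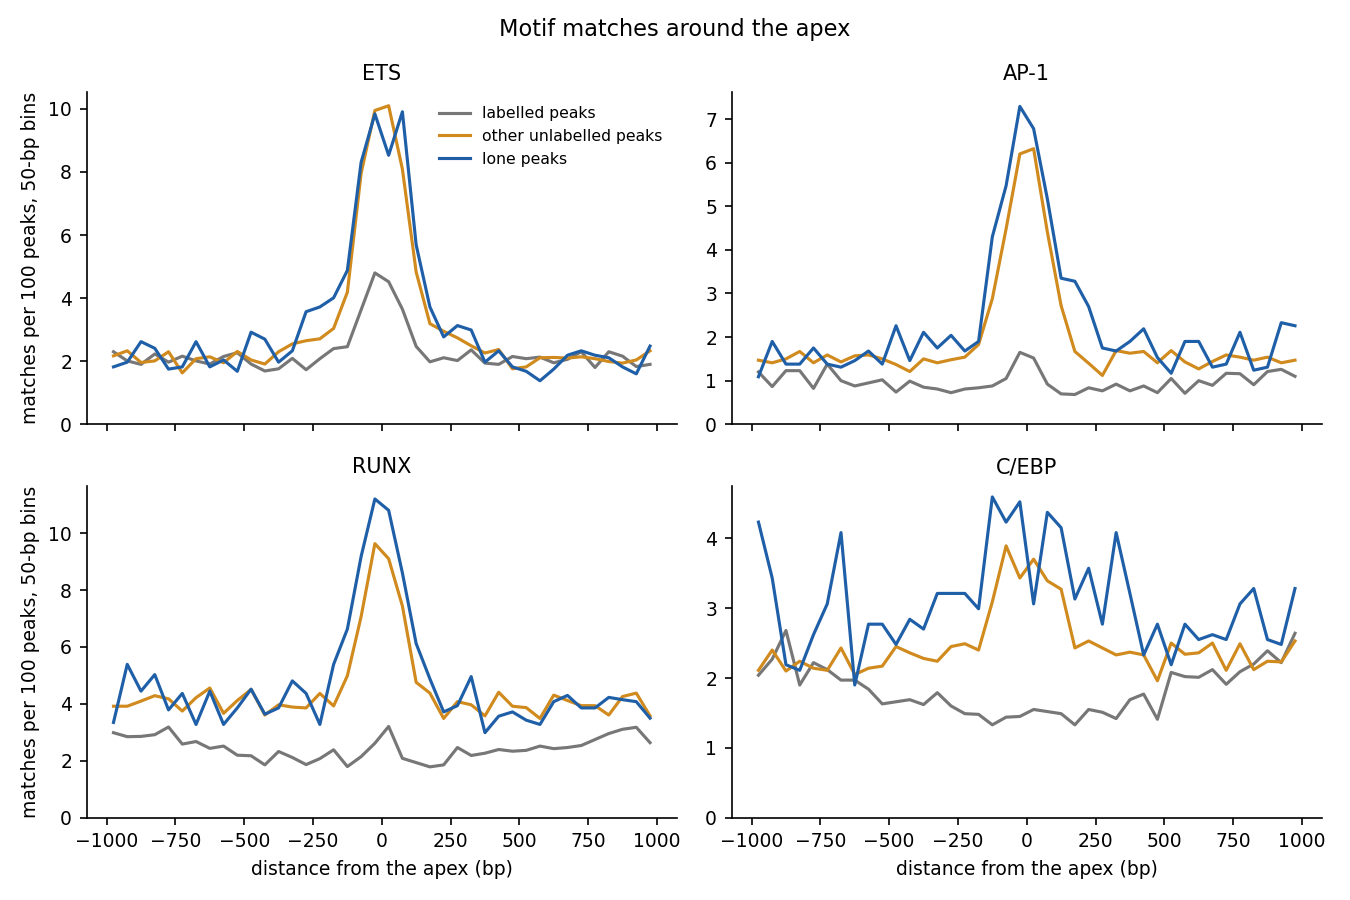
Matches of ETS, AP-1, RUNX and C/EBP letters per 100 peaks in 50-bp bins against the distance from the apex in bp, for lone, other unlabelled and labelled peaks. The ETS, AP-1 and RUNX curves of lone and of other unlabelled peaks rise together within about 200 bp of the apex, to 9.84, 7.29 and 11.2 per 100 lone peaks in the bin ending at the apex.

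Some lone peaks held letters of more than 1 kind. Whether the kinds met more often than their single shares imply was not tested. None of the 4 kinds, ETS, AP-1, RUNX and C/EBP, was present in 32.3% of lone peaks and 65.7% of their flanking windows. Exactly 1 kind was present in 44.3% (29.9% of flanking windows), 2 kinds in 19.5% (3.97%) and 3 kinds in 3.72% (0.364%). All 4 kinds were found in 3 lone peaks (0.219%). ETS with RUNX letters occurred in 117 lone peaks (8.53%), RUNX with AP-1 in 86 (6.27%), ETS with AP-1 in 80 (5.83%) and ETS with C/EBP in 57 (4.15%), against 1.17%, 0.838%, 0.364% and 0.729% of flanking windows. The other unlabelled peaks were close to the lone peaks, with 8.19%, 4.96%, 4.88% and 3.64% for the same pairs and 18.4% for 2 kinds. Over all peaks the pairs occurred in 5.20%, 3.06%, 3.15% and 2.45%, and 2 kinds in 11.9%. Median heights with and without the letters were close. The median height was 21 with and 22 without ETS letters, and 22 with and 21 without RUNX letters. Lone peaks with SP1 letters were wider, with a median of 766 bp against 539 bp without them.

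Lone peaks at start sites of any gene differed in letters from the others. ETS letters occurred in 24.6% of the 240 lone peaks at start sites (19.6 to 30.4%) and 30.9% of the 1132 others (28.3 to 33.7%). AP-1 letters occurred in 12.1% (8.55 to 16.8%) and 22.7% (20.4 to 25.2%), and RUNX letters in 20.0% and 33.1%. SP1 letters were more frequent at start sites, with 44.2% (38.0 to 50.5%) against 10.6% (8.94 to 12.5%). Their GC content, 59.2% against 52.7% at the median, moved in the same direction, and its part in the result was not tested. Intronic and intergenic lone peaks were alike in ETS letters, with 31.8% and 30.3%, and in RUNX letters, with 32.1% and 33.3%, whereas C/EBP letters occurred in 13% (10.7 to 15.7%) and 18.5% (15 to 22.5%).

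Lone peaks occurred on all 23 chromosomes of the list. Their share was highest on chromosome 18, with 29 of 173 peaks (16.8%, 11.9 to 23.0%), and lowest on chromosome 19, with 21 of 1022 (2.05%, 1.35 to 3.12%). Chromosomes 13 and 4 followed at the upper end with 15.5% and 14.7%, and chromosome 17 at the lower end with 3.78%. The number of labelled peaks per Mb, which the rule uses, was 9.47 on chromosome 19 and 6.22 on chromosome 17, and 1.10 on chromosome 18 and 0.981 on chromosome 13. Per Mb of chromosome the lone peaks varied less, from 0.187 on chromosome X and 0.233 on chromosome 14 to 0.598 on chromosome 16 and 0.635 on chromosome 20. The median height of lone peaks was between 20 and 24 on every chromosome, and the median width between 481 bp on chromosome 13 and 743 bp on chromosome 14.

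**Figure D5:**
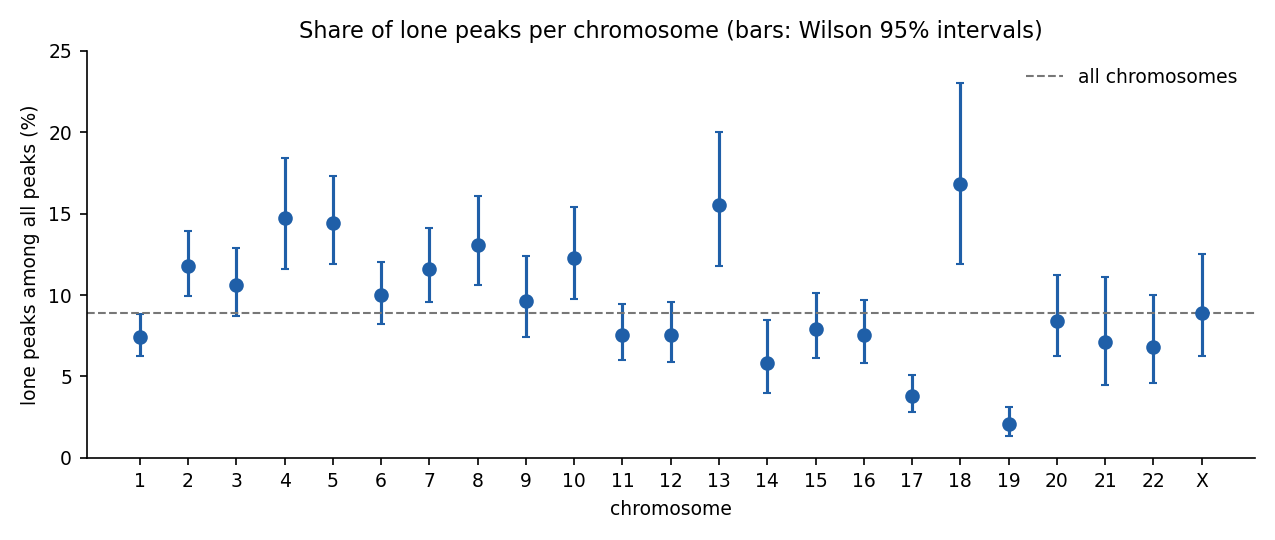
Lone peaks as a percentage of all peaks on each chromosome, with Wilson 95% intervals, and the share over all chromosomes, 8.90%, as a dashed line. Chromosome 18 lies highest with 16.8% and chromosome 19 lowest with 2.05%.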

How the data were processed

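Cut&Run was carried out on isolated nuclei of U937-PR9 cells. According to the study's methods and the labels, the authors used Trimmomatic for trimming and Bowtie2 for alignment to hg19, and took out duplicates (Samtools) and blacklisted reads (Bedtools). They identified peaks with SEACR relative to the paired control ('norm union') and kept peaks with an IDR below 0.05 between replicates. A column of whole numbers deposited by the authors was read from its values as the total signal of each peak, with no stated normalization. From its values, the deposited score column was read as the largest signal within the peak and is given here as height, and the deposited width is in bp. Which replicate, mean or pool the signal came from is not given in the sources used here, and sequencing depth is unknown. The study's methods describe placing peaks by the overlap of their apex with UCSC known gene features, and the gene symbols were taken to come from this step. How the symbols were given is not stated further. Of the labelled apexes, 95.0% lay within 1 kb of a GENCODE start site (6811 of 7169), and some unlabelled apexes did as well.

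The apex was the midpoint of the deposited interval of largest signal, or its start in the 3 lone peaks without an end. Positions were compared with GENCODE release 44 on GRCh37, the same assembly as hg19. No peak passed the end of a reference chromosome, and the labelled apexes lay a median of 102 bp from a start site of their symbol (6987 peaks). An apex within 1 kb of the start site of any annotated transcript was placed there, otherwise in an exon, an intron or intergenic sequence. Motif letters on either strand were counted up to 100 bp from the apex and in windows of equal length centred 2 kb to either side. Each 31-base word of the apex window was counted in the genome. Shares have Wilson 95% intervals and medians order-statistic 95% intervals, which cover the counting of peaks only. No test was made, because peaks of 1 list are not replicates.

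The members and the gene lists were chosen with earlier results of these data known. The peaks named were the 5 highest, widest, most isolated and farthest from a start site, those nearest to each limit of the rule, and every lone peak nearest to a listed myeloid or retinoid gene or a gene the study names, with up to 3 for other families. Some of these peaks are not reported here. Start-site and host-gene peaks named besides were chosen after their values were seen. Scripts were tested on simulated data. The versions were matplotlib 3.10.9, numba 0.67.0, pandas 2.3.3, scipy 1.17.1, numpy 2.4.6 and Python 3.11.15.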

Additional observations from a re-analysis of the deposited data

How the results depend on the processing

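No paired analysis was possible because only a single value was given for each peak in this list, and leaving out a replicate could not be done either. The number of lone peaks was 1372, and it was 799 with 200 kb required to labelled peaks, 477 among peaks at or above the median height of the list and 290 among those at or above its median width, which keep fewer peaks by construction. Under the other 6 settings it stayed between 1076 and 1959. The median height was 27 at or above the median width and 21 or 22 otherwise. The median width of 559 bp became 579 bp with 50 kb to labelled peaks, 714 bp at or above the median height and 540 bp without peaks at start sites. The intergenic share of 29.6% became 25.5% at or above the median width, 35.9% without start-site peaks and 48.3% with protein-coding genes only, where fewer genes are counted. The ETS share of 29.8% became 21.4% at or above the median width, 16% within 50 bp and 41.0% within 200 bp of the apex, where the window itself changes, and 26.1% around the peak centre. The cause was not tested for the width-limited values. Keeping only peaks whose apex words were all unique, a setting chosen after seeing the data, gave 1257 peaks with a median width of 577 bp, an intergenic share of 28.8% and an ETS share of 29.8%. Depth is unknown, so peaks missing near the lowest heights cannot be told from absent binding.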
